A study of Mus musculus with 18 samples.

Results

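Astrocyte cells were compared with neuron cells from primary mouse brain cultures. The members are the 6 libraries that GEO's labels give as primary astrocytes or primary neurons, 3 replicates of each, out of 18 libraries in the series. The other 12 hold microglia cells and the small extracellular vesicles (sEVs, membrane particles that cells shed) of all 3 cell types, and the study was designed to ask which messenger RNAs are put into the sEVs of each type. Both groups compared here are source cells of sEV preparations, cultured from mouse brain with no treatment named. The labels give no strain, age, sex, brain region or time in culture, and no method of purification. Copying of the RNA began at its poly(A) tails, the low-input preparation used 15 cycles of PCR, and each gene's value is a normalized count. A gene was tested when its value was at least 10 in at least 3 of the 6 libraries, which left 17218 of the 54307 genes in the table.

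Astrocytes are the glial cells that take up glutamate and potassium released by active neurons, move water and ions between the blood, the extracellular space and each other through gap junctions, store glycogen and supply lipoproteins and lactate. Neurons fire action potentials through voltage-gated channels, release transmitter and peptides from vesicles, and carry cargo along microtubules in axons and dendrites. Many proteins that all cells need exist in a general or glial form and a neuronal form encoded by separate genes, and the transcriptional repressor REST keeps a large set of neuronal genes silent outside neurons by binding a DNA element called RE1.

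The values of a library added up to 36947428 to 44059144 in astrocyte cells and 41683285 to 43638426 in neuron cells. The reads behind them, estimated from the commonest non-zero value of a library, numbered 41625671 to 76017122 in astrocyte and 43958089 to 65623306 in neuron libraries. The correlation of log2 values across the tested genes was 0.927 to 0.934 between astrocyte libraries, 0.914 to 0.935 between neuron libraries and 0.732 to 0.753 between an astrocyte and a neuron library, with genes as points that are not independent replicates. Astrocyte libraries held fewer genes at a value of at least 10, with 16094, 15748 and 15700 in astrocytes against 18131, 17063 and 17714 in neurons. Their 10 highest genes took a larger share of the total, 11.1% ± 1.34 in astrocytes and 7.64% ± 0.61 in neurons (SD, n = 3 each, as for every ± after a mean below). In neither measure did the groups overlap, and a two-sided exact permutation test gave p = 0.1, the smallest that 3 against 3 libraries allow. The labels do not say whether replicates are separate cultures, so every p-value measures the spread between these libraries, which may be technical.

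More genes were lower than higher in astrocytes. On log2(value + 1), limma with Benjamini-Hochberg adjustment over all tested genes called 2100 genes higher in astrocytes, 12.2% of those tested, and 4525 lower, 26.3%. Differences below are log2 values, astrocyte minus neuron, with the SE of the fit, and a gene is said to have risen or fallen in astrocytes only where its adjusted p was under 0.05. Large differences lay mostly on the neuron side: 1497 genes were more than 16-fold lower in astrocytes and 154 more than 16-fold higher. The balance depended on the scaling. With quantile normalization 4076 of the 17218 genes were called higher and 3237 lower, and later list counts for that setting stand beside these. Quantile normalization moved the median of all genes by 0.50 and turned 31.7% of calls higher and 68.3% lower into 55.7% higher and 44.3% lower, whereas the excess of large differences on the neuron side remained, with 879 genes more than 16-fold lower and 379 more than 16-fold higher.

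The marker lists followed the labels. Of 64 astrocyte markers tested, 48 were higher and 3 lower in astrocytes, and of 42 neuron markers, 0 were higher and 41 lower. Gfap, the intermediate filament that defines reactive and cultured astrocytes, had 396830.0, 454959 and 369385 in the astrocyte libraries against 37706, 42356 and 33362 in the neuron libraries. The astrocyte libraries stood above the neuron libraries with no overlap, by 10.8-fold between means (3.43 ± 0.18, adjusted p = 1.14e-05). Rbfox3, which encodes the neuronal nuclear antigen NeuN, had 133, 61.8 and 49.1 in astrocytes against 3571, 6675 and 2695 in neurons (-5.74 ± 0.46, adjusted p = 7.02e-05). Summed over the list, astrocyte markers came to 3073125 to 4762543 in astrocyte libraries and 673648 to 781813 in neuron libraries, and neuron markers to 107521 to 117801 in astrocyte and 904275 to 1054897 in neuron libraries. Each culture thus held RNA of the other type's markers, and in bulk RNA fewer cells of a type and less RNA per cell cannot be told apart.

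Some marker lists of other cells also differed between the cultures. Their counts stand beside 12.2% higher and 26.3% lower over all tested genes. Oligodendrocyte lineage markers, 14 of 22 higher (9 without astrocyte replicate 1 or 2), summed to 295706 to 537036 in astrocyte and 42978 to 127941 in neuron libraries. Genes of myelinating cells carried most of this. Mbp, a major protein of myelin, had 185722, 95349 and 101052 in astrocyte against 12276, 5043 and 31269 in neuron libraries (3.28 ± 0.60, adjusted p = 0.00344). Of 10 progenitor markers 4 were higher and 1 lower, with sums of 35631 to 53700 in astrocyte and 18280 to 32382 in neuron libraries. Among them Pdgfra, a receptor that marks oligodendrocyte progenitors, stood at 7980.2 ± 1569 in astrocyte and 8779 ± 1299 in neuron libraries and was not called. Radial glia markers were higher in 10 of 17 genes tested, on a list that shares Nes, Vim, Fabp7 and Slc1a3 with the astrocyte markers. Fibroblast and meningeal markers were higher in 7 of 16, and ependymal and choroid plexus markers in 2 of 13 against 4 lower. The ependymal shares, 15.4% higher and 30.8% lower, lay near those over all tested genes. The fibroblast sums overlapped, at 18542 to 50194.5 in astrocyte and 28488 to 50054 in neuron libraries. Their means were 29819 in astrocyte and 41007 in neuron libraries. The fibroblast count was 1 to 4 without any library but astrocyte replicate 1, and the higher ependymal count 1 without any astrocyte library. Microglia markers summed to 3033 to 6267 in astrocyte and 2862 to 3112 in neuron libraries, against 2239988 to 2490241 in the series' microglia cells, and 5 of 20 passed the filter. Ptprc, the leukocyte antigen CD45, was listed at 0 in all 6 libraries and the microglial receptor gene Trem2 at no more than 8.9. Endothelial, mural and blood markers summed to at most 3370, 6272 and 189 in any of the 6 libraries. The part of these other cells in the differences below was not tested.

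The largest differences higher in astrocytes included genes of several kinds. Ttr encodes transthyretin, a carrier of thyroid hormone and retinol made mainly by choroid plexus and liver, and had 5462, 4455 and 2559 in astrocytes against 24.8, 85.0 and 23.1 in neurons. Its rise of 6.72 ± 0.54 (adjusted p = 7.08e-05) was the largest among genes above 0 in every library with a mean of at least 500 in astrocytes, and it stands on the choroid plexus list named above. Aqp4, the water channel of astrocyte endfeet, had 107090.0, 111156 and 156831 in astrocytes against 4792, 3689 and 7555 in neurons (4.59 ± 0.28, adjusted p = 2.03e-05). Cntf encodes ciliary neurotrophic factor, a cytokine that supports neurons and oligodendrocytes, and had 2435, 3092 and 2805 in astrocytes against 143, 69.7 and 128 in neurons (4.66 ± 0.32). Fcgrt, the neonatal Fc receptor that recycles immunoglobulin and albumin, rose by 4.63 ± 0.38, and so did Rnase1, a secreted ribonuclease, by 6.55 ± 0.58. Bdh2, a cytosolic dehydrogenase, rose by 4.70 ± 0.44, the retinol dehydrogenase Rdh5 by 4.55 ± 0.38 and the mitochondrial calcium-binding protein gene Efhd1 by 4.61 ± 0.68. Mag, a myelin glycoprotein, rose by 5.44 ± 0.73.

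Neuronal genes reached far larger differences. Stmn2, a microtubule regulator of growing axons, had 29.96, 19.9 and 26.3 in astrocytes against 61333, 82074 and 63706 in neurons, with a log2 difference of -11.36 ± 0.22 (limma adjusted p = 4.33e-07). Syt1, the calcium sensor of fast transmitter release, had 126, 205 and 11.8 in astrocytes against 53388, 64116 and 54088 in neurons (-9.68 ± 0.89), and the related Syt4 had 81.6, 24.3 and 91.0 in astrocytes against 61866, 93870.2 and 57984 in neurons (-10.24 ± 0.47). Syt1 was uneven among astrocyte libraries and lowest in replicate 3. Cck, a neuropeptide, fell (-9.74 ± 0.49), Sez6l2, a membrane protein of neurons (-9.56 ± 0.78), and Camkv, a kinase-like protein of synapses (-9.38 ± 0.40). Golga7b, St8sia3, a sialyltransferase, and the predicted gene AI593442 fell (-9.18 ± 0.41, -8.71 ± 0.56 and -10.21 ± 1.03). Rbfox1, a splicing factor of neurons, fell (-8.71 ± 0.38).

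**Figure D1:**
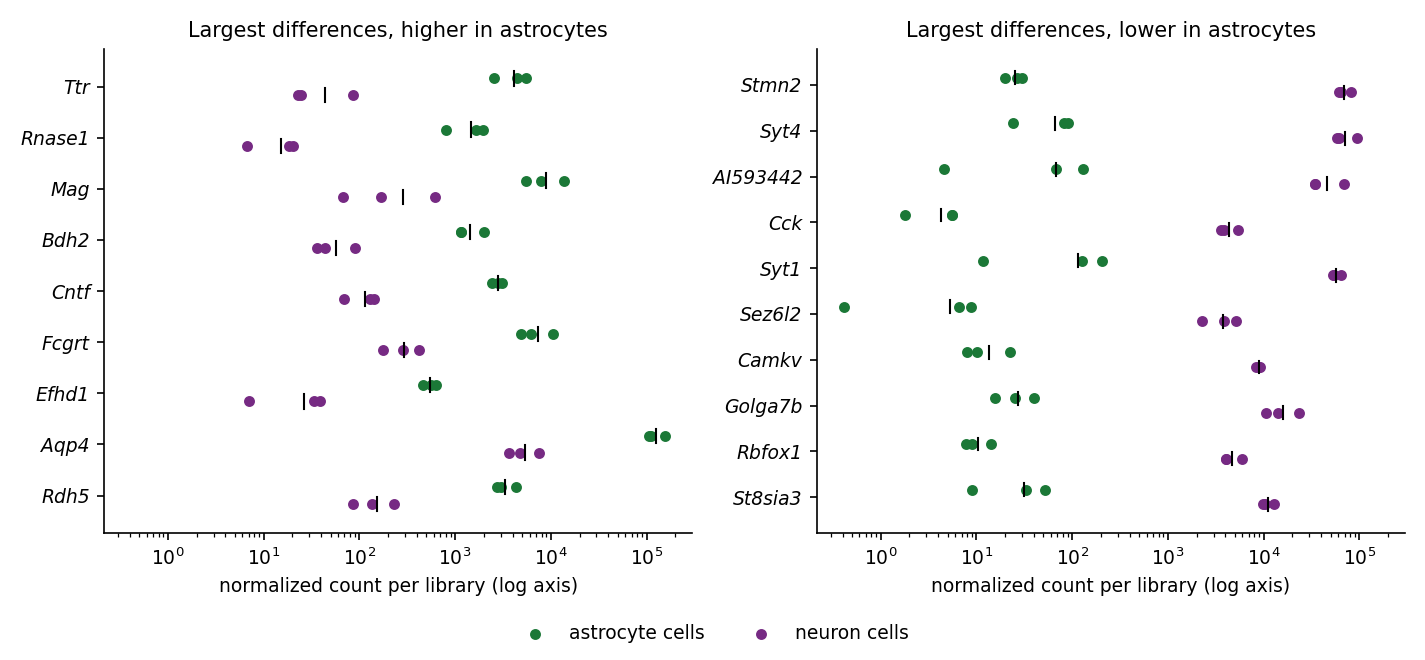
Normalized count per library on a log axis for 9 of the largest differences higher and 10 lower in astrocytes by the naming rule; points are libraries, black ticks group means, green astrocyte cells and purple neuron cells, 3 libraries each. The naming rule required that the groups not overlap, and the differences lower in astrocytes (right) are wider than those higher in astrocytes (left).

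Some genes were listed at 0 throughout a group. There were 331 called genes at 0 in all 3 astrocyte libraries and 32 at 0 in all 3 neuron libraries. The filter admits such a gene only where all 3 libraries of the other group reach 10. Separation of the groups was thus fixed beforehand, here and for every gene below that stayed under 10 throughout a group. Slit1, Sst, Ntf3 and Panx2 are such genes that were not at 0 in every astrocyte library. The highest of those at 0 in astrocytes were Grin2a, an NMDA receptor subunit, at 9396, 12719 and 12224 in neurons, Mal2, a membrane transport protein, at 7200.5, 12678 and 8084, Cacng3, an auxiliary subunit of AMPA receptors, at 6549.5, 11751 and 7959, Lrfn5, a synaptic adhesion protein, at 5629.8, 7183 and 5106, and Fam163b at 4600.0, 4723 and 4919.6. Those at 0 in neurons were listed at lower values. Aspa, the aspartoacylase of oligodendrocytes, had 281, 136 and 133 in astrocytes, Tph1, a tryptophan hydroxylase, 448, 17.7 and 161, Itih2, a hyaluronan-binding protein, 94.1, 51.8 and 308, and Tmem182 108, 67.1 and 217. Tph1 had the most uneven values, at an adjusted p of 0.00279.

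The promoter window of Fam163b was also one of few that hold the letters of an RE1 core, here 102 bases before the start. Rest itself, the repressor that binds RE1, rose to 1131, 959.7 and 1038 in astrocytes, against 368, 293 and 183 in neurons (1.94 ± 0.31, adjusted p = 0.00172). The promoter windows of RefSeq on GRCm38.p6, 250 bases before to 50 bases after each start, were searched on both strands for CAGCACC and GGACAG with any 2 bases between them. Of 32851 windows 12 held this pair (0.0365%), in 11 genes, 9 of which were tested: 6 were called lower, none higher and 3 not called, beside 26.3% lower and 12.2% higher over all tested genes. The windows matched 70.3% of tested genes, so no shares by class of gene are given, and a match of letters is a description and not a measured site. Shown are 3 matching genes that fell and 1 that was not called, 5′ to 3′ on the gene's strand with the match in capitals. CTGTCC before GGTGCTG is the element on the opposite strand. Fam163b lies at chr2:27142428-27142727 (minus strand), Hrh3 at chr2:180104358-180104657 (minus), Sptbn4 at chr7:27396149-27396448 (minus) and Lca5 at chr9:83441078-83441377 (minus).
Fam163b: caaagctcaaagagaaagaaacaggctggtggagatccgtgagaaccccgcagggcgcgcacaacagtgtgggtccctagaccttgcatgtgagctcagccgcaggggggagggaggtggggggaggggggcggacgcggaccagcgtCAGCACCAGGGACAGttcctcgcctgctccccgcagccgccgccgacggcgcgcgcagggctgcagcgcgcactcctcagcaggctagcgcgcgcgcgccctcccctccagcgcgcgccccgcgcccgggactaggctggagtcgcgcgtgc
Hrh3: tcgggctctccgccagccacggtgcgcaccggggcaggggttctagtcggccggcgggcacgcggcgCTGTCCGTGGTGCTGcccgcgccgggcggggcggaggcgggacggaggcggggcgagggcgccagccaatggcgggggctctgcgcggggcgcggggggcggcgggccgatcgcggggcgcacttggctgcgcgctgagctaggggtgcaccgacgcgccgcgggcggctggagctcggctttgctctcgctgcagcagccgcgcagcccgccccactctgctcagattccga
Sptbn4: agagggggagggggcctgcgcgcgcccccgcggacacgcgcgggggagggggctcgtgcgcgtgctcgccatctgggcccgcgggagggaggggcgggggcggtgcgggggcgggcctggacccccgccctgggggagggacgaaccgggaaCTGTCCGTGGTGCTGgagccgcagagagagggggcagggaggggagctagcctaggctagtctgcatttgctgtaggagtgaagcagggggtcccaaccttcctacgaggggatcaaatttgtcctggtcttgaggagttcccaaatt
Lca5: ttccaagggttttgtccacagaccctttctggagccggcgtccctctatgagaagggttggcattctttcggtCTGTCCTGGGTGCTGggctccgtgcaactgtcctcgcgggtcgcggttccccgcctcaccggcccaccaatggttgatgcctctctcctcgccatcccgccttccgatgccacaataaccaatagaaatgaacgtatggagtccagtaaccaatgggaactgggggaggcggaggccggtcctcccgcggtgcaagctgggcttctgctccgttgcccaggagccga

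Hrh3, the histamine receptor that restrains transmitter release, was listed at 0 in all 3 astrocyte libraries and at 219, 316 and 249 in neurons (adjusted p = 7.39e-05). Sptbn4, a spectrin of the axon initial segment, had 4.81, 7.29 and 21.4 in astrocytes against 177, 53.4 and 159.7 in neurons (-3.50 ± 0.80, adjusted p = 0.0103). Lca5, a ciliary gene, stood at 474 ± 225 in astrocytes and 484 ± 186 in neurons (-0.05 ± 0.43, adjusted p = 0.934), although its window holds the same core letters. The other matching genes that fell were Osbp2, at 24.2, 0 and 25.0 in astrocytes against 909, 1032 and 909 in neurons, Ttc9b (-3.66 ± 0.53) and Fbll1 (-1.87 ± 0.56). Fbll1 lost its call without any of 5 libraries, all but neuron replicate 2, at log2 differences of -2.02 to -1.73 (adjusted p = 0.0507 to 0.0907).

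Channels, pumps and gap junction genes of astrocytes were higher more often than lower, but Kir4.1 and connexin 30 were not called. Of 36 tested, 17 were higher and 7 lower, beside 12.2% and 26.3% of all genes. Gja1, which encodes connexin 43, had 207512, 173876 and 283633 in astrocytes against 17322, 16171 and 21041 in neurons (3.59 ± 0.22, adjusted p = 2.03e-05). Mlc1, a membrane protein of astrocyte junctions, and its partner Hepacam rose by 2.28 ± 0.30 and 2.14 ± 0.24, and the bicarbonate cotransporter Slc4a4 by 2.08 ± 0.34. Fxyd1, a regulator of the sodium pump, rose by 3.65 ± 0.25. Kcnj10, which encodes the inward rectifier Kir4.1 that clears potassium, had 4312, 4049 and 7709.7 in astrocytes against 6389, 3901 and 5933 in neurons, ranges that overlap (-0.05 ± 0.29, adjusted p = 0.918), while its partner subunit Kcnj16 rose by 2.34 ± 0.28. Gjb6, connexin 30, was not called at 165 ± 92.8 in astrocytes and 220.1 ± 146 in neurons. The neuronal gap junction genes Gjd2, connexin 36, and Panx2 fell, to 25.4 ± 39.4 and 3.26 ± 2.32 in astrocytes, against 595 ± 219 and 536 ± 234 in neurons.

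Glutamate clearance showed the same unevenness. Slc1a3, the transporter GLAST, had 192654 ± 64342 in astrocytes and 48752 ± 10732 in neurons (1.96 ± 0.27), and Slc1a2, the transporter GLT-1, 29553 ± 10522 in astrocytes and 15339 ± 2741 in neurons (0.90 ± 0.27). Slc1a2 lost its call without astrocyte replicate 1 or 3 or neuron replicate 1 or 3, at 0.64 to 0.87 (adjusted p = 0.0603 to 0.114). Glul, glutamine synthetase, which turns the glutamate taken up into glutamine, had 6692 ± 3122 in astrocytes and 1603 ± 436 in neurons (adjusted p = 0.00206), and Glud1, glutamate dehydrogenase, rose by 1.77 ± 0.15. The glycine cleavage gene Gldc and the serine synthesis gene Phgdh rose by 2.53 ± 0.45 and 1.73 ± 0.24. The GABA transporter gene Slc6a11 was not called (-0.55 ± 0.32). The taurine transporter Slc6a6 and the aspartate aminotransferase Got1 fell (-2.29 ± 0.22 and -1.78 ± 0.18). Of the astrocyte markers, Synm, an intermediate filament protein, Hapln1, a link protein of the extracellular matrix, and Slc7a10, a serine transporter, fell: these had 72.2 ± 34.9, 609 ± 539.8 and 94.3 ± 64.3 in astrocytes and 1242 ± 343, 10254 ± 2845 and 419 ± 146 in neurons. Slc7a10 lost its call without any 1 neuron library, at -2.81 to -2.31 (adjusted p = 0.0601 to 0.119), and without astrocyte replicate 3 the markers that fell numbered 5.

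Metabolic genes moved in opposite directions by pathway. Fatty acid oxidation and ketone genes were higher in 24 of 39 and lower in 3, with a median of 1.15 beside -0.26 over all tested genes. Acadm, the medium-chain acyl-CoA dehydrogenase, had 7269.6, 8173 and 9474 in astrocytes against 1639, 1470.0 and 1680.2 in neurons (2.37 ± 0.15, adjusted p = 2.53e-05). Genes of successive steps in the mitochondrion rose: the carnitine palmitoyltransferases Cpt1a (1.34 ± 0.29) and Cpt2 (1.77 ± 0.21), the carrier Slc25a20 (1.13 ± 0.15), the dehydrogenases Acads (2.90 ± 0.28) and Acadl (1.98 ± 0.16), the trifunctional protein genes Hadha (1.47 ± 0.14) and Hadhb (2.26 ± 0.14), and the thiolase Acaa2 (2.04 ± 0.18). The electron transfer genes Etfa, Etfb and Etfdh rose by 1.55, 1.15 and 1.55. Ppara, the nuclear receptor that drives this pathway, rose at a low level, with 47.4, 119 and 148 in astrocytes against 15.2, 0 and 1.21 in neurons. The genes that fell were Oxct1, which uses ketone bodies for energy (-1.63 ± 0.21), the acyl-CoA synthetase Acsl5 (-3.01 ± 0.44) and the fatty acid-binding protein gene Fabp3 (-8.43 ± 0.46).

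Sterol synthesis ran the other way. Of 22 sterol genes, 0 were higher and 19 lower in astrocytes, with a median of -1.30. Sqle, squalene epoxidase, had 13988, 16824 and 16066 in astrocytes against 43914, 54612 and 46899 in neurons (-1.63 ± 0.15, adjusted p = 0.000122). Fdft1, squalene synthase, fell (-1.54 ± 0.14). Vldlr, a receptor that takes up lipoproteins, fell (-2.52 ± 0.23). Lipoprotein and cholesterol export genes were higher in 6 and lower in 9 of 23, with a median of -0.15. Among those that rose, Apoe, the main lipoprotein of brain, had 953870.0, 807303 and 1197355 in astrocytes against 108416, 108206 and 147982 in neurons (3.02 ± 0.25), the lipid exporter Abca1 rose by 1.59 ± 0.22 and the lecithin-cholesterol acyltransferase Lcat by 2.46 ± 0.30. The exporters Abcg1 and Abcg4 fell (-2.72 ± 0.20 and -2.07 ± 0.28). Fatty acid synthesis split, with the elongase Elovl1 and the desaturase Fads2 higher (1.76 ± 0.17 and 1.09 ± 0.20) and the synthase Fasn lower (-1.30 ± 0.24).

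Glycogen genes were higher in 7 of 11 and lower in none. Pygb, glycogen phosphorylase of brain, had 11462, 11677 and 11474 in astrocytes against 3016, 2534 and 2437 in neurons (2.12 ± 0.14), and Ugp2 and Ppp1r3c, which make the glucose donor and target phosphatase to glycogen, rose by 1.86 ± 0.28 and 1.85 ± 0.21. Glycolysis as a list did not move one way, with 6 higher and 5 lower of 24. Pdk4 and Pdk2, kinases that hold pyruvate back from the mitochondrion, rose by 3.35 ± 0.42 and 1.38 ± 0.16, while the hexokinase Hk1 and the phosphofructokinase Pfkp fell (-1.53 ± 0.28 and -2.19 ± 0.17). Ldhb, the lactate dehydrogenase subunit usually ascribed to neurons, rose by 0.91 ± 0.25, and Ldha was not called (-0.38 ± 0.16). Ldhb lost its call without neuron replicate 1 or 3, at 0.77 to 0.92 (adjusted p = 0.0733 to 0.0956).

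**Figure D2:**
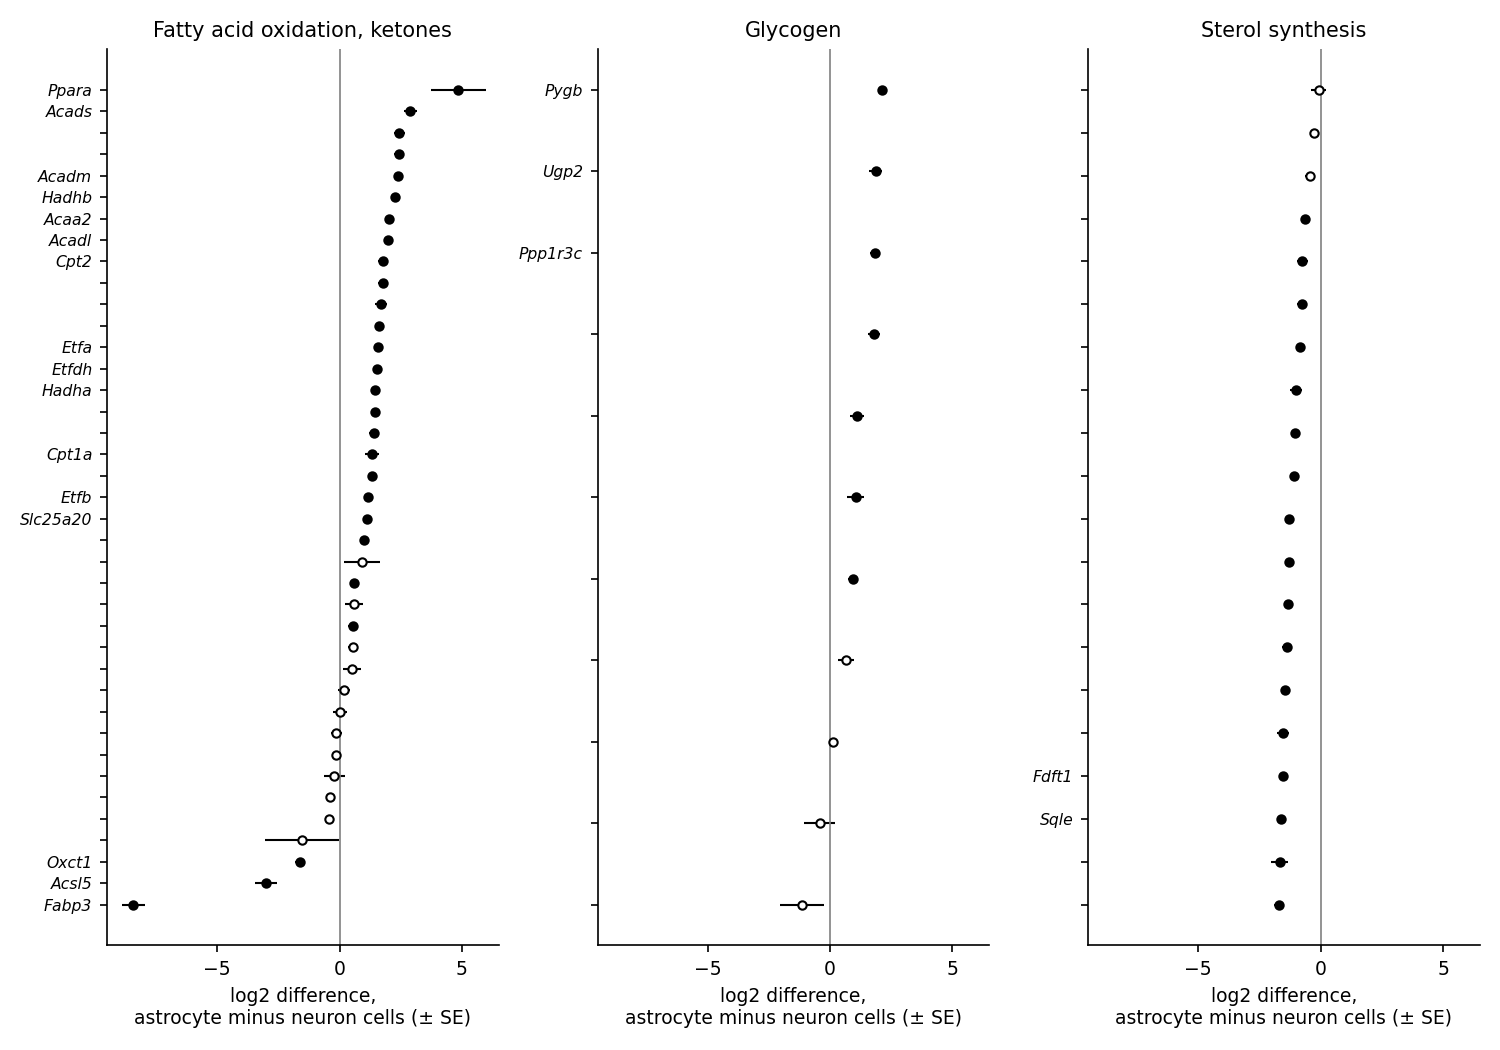
Log2 difference, astrocyte minus neuron cells, with the SE of the fit, for genes of fatty acid oxidation and ketone use, glycogen and sterol synthesis; each point is a gene, filled where called and open where not, and genes described in the text are labelled. Not every gene of the sterol list is drawn. Oxidation and glycogen genes lie mostly right of 0 and sterol genes left of it.

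Antioxidant genes were higher in 17 of 43 and lower in 10. Prdx6, a peroxiredoxin with phospholipase activity, had 110404 ± 41851 in astrocytes and 13758 ± 1585 in neurons (2.95 ± 0.25), and Nfe2l2, which encodes the stress regulator NRF2, rose by 2.42 ± 0.28. Selenop, the selenium carrier, rose by 2.43 ± 0.20, and the metallothioneins Mt1 and Mt2 by 2.34 ± 0.21 and 2.08 ± 0.19. Superoxide dismutase Sod1 fell (-0.71 ± 0.16) and the microsomal transferase Mgst3 (-3.12 ± 0.24). Lysosomal genes were higher in 15 of 42 and lower in 6, or in 3 without astrocyte replicate 1 or 2 or neuron replicate 2 and in 10 without astrocyte replicate 3. Among the higher were the cholesterol transporters Npc1 and Npc2 (1.58 ± 0.28 and 1.09 ± 0.18), the membrane protein Lamp2 (1.89 ± 0.20) and the tetraspanin Cd63 (2.84 ± 0.22). Ids, the iduronate sulfatase, fell (-3.16 ± 0.24).

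Transcription factors of glia and progenitors were higher in 23 of 43 and lower in 1, Nfix (-2.02 ± 0.14). Sox9, a glial fate factor, had 11242, 12094 and 14514 in astrocytes against 1689, 1409.7 and 1223 in neurons (3.13 ± 0.17, adjusted p = 1.39e-05). Id3, Id1 and Id4, inhibitors of basic helix-loop-helix factors and targets of BMP signals, rose by 3.83 ± 0.37, 3.51 ± 0.32 and 2.75 ± 0.24. Rfx4, Tcf7l2 and Pax6 rose by 3.25 ± 0.28, 2.61 ± 0.30 and 2.37 ± 0.26. Notch, Hes and BMP signalling genes were higher in 13 and lower in 9 of 45, or 4 lower without neuron replicate 1. Receptors that rose included Notch1 and Notch2 by 1.81 ± 0.34 and 2.12 ± 0.29, and the BMP receptor genes Bmpr1a and Bmpr1b by 2.15 ± 0.20 and 2.01 ± 0.22. Notch ligands were higher in none of 8 and lower in 3, with Dner, a Notch ligand of neurons, at 9510.3 ± 2626 in astrocytes and 28904 ± 4188 in neurons.

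Receptors for growth factors, peptides and transmitters were higher in 12 of 56 and lower in 30, with a median of -1.55, and 7 were higher with the spread taken from all 9 cell libraries. Among those that rose, Ednrb, the endothelin B receptor of astrocytes, had 144856, 154677 and 192990.0 in astrocytes against 14058, 16294 and 14323 in neurons (3.45 ± 0.16, adjusted p = 8.68e-06). Il6st, the shared signalling subunit of the interleukin 6 family, and Egfr rose by 2.71 ± 0.18 and 1.94 ± 0.30. Ntrk2, the receptor of BDNF, rose by 1.86 ± 0.20 in a table that counts all its transcripts together, including the form without a kinase that astrocytes are known to make. Its relative Ntrk3 fell (-1.29 ± 0.26), and the ligand Bdnf (-3.34 ± 0.46).

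Integrin and focal adhesion genes were higher in 18 of 41, or 11 without astrocyte replicate 3, and lower in 7, or 4 without neuron replicate 1. Itga7, a laminin receptor, and Itgb8, which activates TGF-beta, rose by 2.81 ± 0.36 and 1.25 ± 0.24. Interferon-stimulated genes were higher in 12 of 30 (19 with quantile normalization). The guanylate-binding protein Gbp2 had 1735, 1777 and 1506 in astrocytes against 60.5, 67.2 and 209.9 in neurons (4.12 ± 0.48), beside 277278 ± 31101 in the series' microglia cells, and Gbp3 and Gbp7 rose by 2.70 ± 0.30 and 3.11 ± 0.46. These 3 genes are close relatives, so reads can be split between them. Il1r1, the interleukin 1 receptor, and Osmr, the oncostatin M receptor, rose by 3.30 ± 0.80 and 2.20 ± 0.30, and C4b, a complement component of reactive astrocytes, by 2.54 ± 0.46. Complement genes as a list were higher in 3 and lower in 5 of 15, with 3 lower without neuron replicate 1 or 3 and 6 higher with quantile normalization. Genes of MHC class I presentation were higher in 3 and lower in 4 of 21, against 6 higher without astrocyte replicate 2 and 2 lower without astrocyte replicate 1 or 2. Ligands of microglial receptors went both ways: Cx3cl1, fractalkine, had 601 ± 229 in astrocytes and 13169 ± 1098 in neurons (-4.54 ± 0.30), and Il34, a ligand of the CSF1 receptor, 8.45 ± 5.79 in astrocytes and 462 ± 259 in neurons (-5.74 ± 0.80), while Csf1, the other ligand of that receptor, rose by 1.84 ± 0.40.

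Synaptic and excitable gene groups fell almost throughout. Of the synaptic vesicle cycle 51 of 56 tested genes were lower in astrocytes, of synaptic adhesion genes 46 of 52, of voltage-gated channels 51 of 60, of GABA and glycine receptors 16 of 20 and of glutamate receptors and scaffolds 42 of 53. The higher members of these lists were Kcnip3, a modulator of potassium channels (0.99 ± 0.17), and Homer3, a scaffold of metabotropic receptors (1.90 ± 0.41). In synaptic adhesion 1 member was higher without neuron replicate 2 or with a pseudocount of 10, equal totals or a replicate block. With quantile normalization 3 were higher there, 1 among GABA and glycine receptors and 2 among voltage-gated channels. Snap25, a core fusion protein, had 956, 533 and 352 in astrocytes against 26846, 44494 and 32103 in neurons (-5.90 ± 0.36, adjusted p = 2.03e-05). Syt11, a synaptotagmin that does not bind calcium, was not called in the same list, at 90852 ± 3714 in astrocytes and 103509 ± 7788 in neurons. Sv2b, a vesicle glycoprotein, had 57.4, 0 and 0 in astrocytes against 16105, 19971 and 16967 in neurons and was called. Dnajc6, the neuronal auxilin that uncoats clathrin vesicles, had 76.4, 0 and 0 in astrocytes against 4113, 7164 and 4766 in neurons and was called.

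Receptor subunits differed widely in size of effect. Grin2b, the early NMDA receptor subunit, had 48.0, 16.4 and 20.5 in astrocytes against 10128, 6743 and 12897 in neurons (-8.51 ± 0.44), and Grin1, the obligatory subunit, fell (-4.73 ± 0.94). Of AMPA receptor genes Gria1 fell (-5.17 ± 0.27), Gria3 (-2.60 ± 0.21), Gria2 (-2.11 ± 0.16) and Gria4 (-1.39 ± 0.16), and differences between subunits were not tested. Gria2 still stood at 14051 ± 1136 in astrocytes, against 60888 ± 9171 in neurons. Among GABA-A receptor genes, Gabrb1, at 9960.4 ± 6363 in astrocytes and 16377 ± 1730.3 in neurons (-0.89 ± 0.37), and Gabrg1, at 2333 ± 598 in astrocytes and 1822 ± 203 in neurons (0.33 ± 0.21), were not called. Without astrocyte replicate 3, Gabrb1 was called lower (-1.38, adjusted p = 0.000448). Among channels, the sodium channel gene Scn2a fell (-4.77 ± 0.15), as did the calcium channel genes Cacna1b and Cacna1e (-6.18 ± 0.28 and -6.47 ± 0.45).

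The neuron cultures held genes of several transmitter classes. Slc17a7, the vesicular glutamate transporter VGLUT1, was listed at 0 in all 3 astrocyte libraries and at 3531, 1701 and 2376 in neurons (adjusted p = 1.01e-05), and Slc17a6, VGLUT2, had 23.5 ± 20.5 in astrocytes and 2857 ± 1269.6 in neurons. Gad1 and Gad2, the enzymes that make GABA, had 326 ± 124 and 12.2 ± 21.2 in astrocytes and 6155 ± 1129 and 2171 ± 213 in neurons. Peptides of interneurons fell, with Sst, somatostatin, at 7.80, 3.62 and 0 in astrocytes against 4791, 2446 and 4735 in neurons and Npy, neuropeptide Y, at 12.8, 29.8 and 34.2 in astrocytes against 5540.2, 3673 and 6004 in neurons. Genes for monoamine and acetylcholine synthesis were low or not tested: Th had 46.6, 226 and 46.0 in neurons and was listed at 0 in astrocytes, and Chat did not pass the filter. Ddc, aromatic amino acid decarboxylase, rose in astrocytes by 3.04 ± 0.66. Of the whole list 27 of 36 tested genes were lower and 1 higher. Of all 40 members, tested or not, 14 were at 0 in every astrocyte library. Neuropeptide and granin genes were lower in 27 of 31, and the 2 that rose were Agt, angiotensinogen (4.03 ± 0.24), and Cpe, carboxypeptidase E, which trims peptide precursors (1.64 ± 0.41). Cpe lost its call without neuron replicate 3, at 1.23 (adjusted p = 0.0541).

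Neuronal transcription factors were lower in 39 of 68 and higher in 6. Tbr1 and Neurod6 mark glutamatergic neurons of the cortex. Both were listed at 0 in all astrocyte libraries, with 588, 198 and 606 for Tbr1 and 2442, 4626 and 1482 for Neurod6 in neurons. Lhx6 and Dlx1 mark interneurons: Lhx6 was listed at 0 in astrocytes and at 372, 359 and 496 in neurons, and Dlx1 had 73.3 ± 77.1 in astrocytes and 2120.2 ± 750.3 in neurons. Mef2c fell (-6.02 ± 0.20) and Myt1l, which represses other cell fates in neurons (-7.62 ± 0.58). Members that rose included Sox4 (1.30 ± 0.16) and Npas3 (2.01 ± 0.30). Of 44 transcription factors of midbrain, hindbrain and cord 3 passed the filter, and Hox genes were not among them.

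Cytoskeletal and RNA-binding protein genes were part of the same division. Neuronal cytoskeleton and motor genes were lower in 44 of 55, from modest falls of Tuba1a (-1.20 ± 0.24) and Map2 (-1.33 ± 0.17) to Dync1i1, a dynein chain, at 0, 82.2 and 18.2 in astrocytes against 4599, 6127 and 5270.4 in neurons. Marcks, an actin-binding protein, was the member that rose (1.05 ± 0.19), and 2 members were higher without astrocyte replicate 3. Tuba1a has close relatives, so its reads may be shared. Of neuronal RNA-binding proteins 17 of 24 were lower, Celf4 among them (-6.05 ± 0.18), while Nova1 rose by 1.25 ± 0.27. Among glial and general ones Qki, which stabilizes glial messenger RNAs, rose by 1.75 ± 0.19 and Zfp36l1, which promotes RNA decay, by 1.86 ± 0.20. Axon guidance genes were lower in 41 of 69 and higher in 9, or 3 without astrocyte replicate 1 and 4 without astrocyte replicate 2 or 3 or neuron replicate 1 or 2. Slit1, a repellent ligand, had 6.62, 8.83 and 0 in astrocytes against 383, 429 and 389 in neurons and was called, the receptor Epha7 fell (-4.77 ± 0.22), and the plexin Plxnb1 rose by 2.08 ± 0.39. Protocadherins were lower in 39 of 67, or 19 with the spread taken from all 9 cell libraries, although isoforms of the alpha cluster share constant exons and their values are uncertain.

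**Figure D3:**
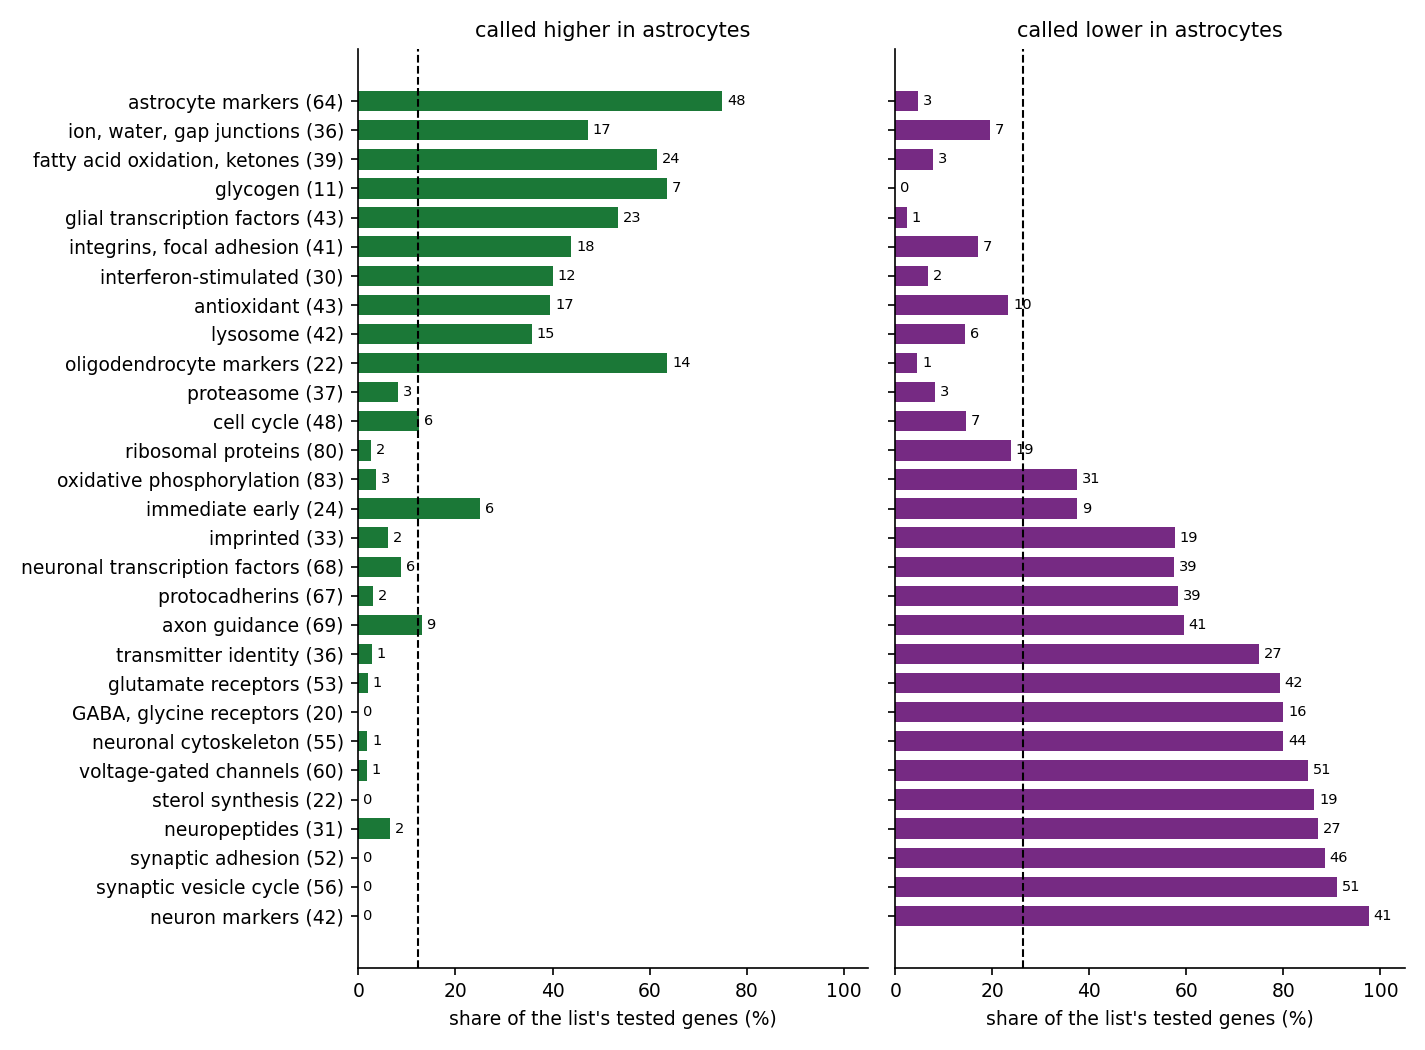
Share of each list's tested genes called higher (left) and lower (right) in astrocyte cells against neuron cells; numbers at the bars are genes called, numbers in brackets genes tested, and dashed lines the shares over all tested genes (12.2% and 26.3%). Lists of astrocyte metabolism and identity exceed the line on the left, and lists of synapse, channels, peptides and sterol synthesis exceed it on the right.

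Imprinted genes, expressed from a single parental copy, were lower in 19 of 33. Meg3, a long noncoding RNA expressed from the maternal chromosome, had 3110.2, 2384 and 3806 in astrocytes against 286354, 202861 and 289306 in neurons (-6.39 ± 0.22, adjusted p = 2.88e-06). Rian, a noncoding RNA of the same domain, fell (-7.11 ± 0.35). Genes of the Prader-Willi region moved the same way, with Snrpn at -2.45 ± 0.23 and Ndn at -1.83 ± 0.19. The kit keeps no record of strand, so reads of sense and antisense neighbours in these regions cannot be told apart.

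Families with a form taken as glial and a form taken as neuronal were set side by side. Of 32 families, 15 combined a glial form that rose with a neuronal form that fell. The glial form rose in 18 and the neuronal form fell in 27, beside 12.2% higher and 26.3% lower over all tested genes. The beta subunits of the sodium pump are an example: Atp1b2, the form of glia, had 212216, 173434 and 414629 in astrocytes against 56452, 56027 and 49538 in neurons (2.20 ± 0.31), and Atp1b1, the neuronal form, had 16753, 14858 and 28023 in astrocytes against 99352, 148526 and 96549.9 in neurons (-2.56 ± 0.28). Membrane fusion genes divided likewise, with Snap23 and Vamp3 at 1.52 and 1.27 and their neuronal counterparts Snap25 and Vamp2 at -5.90 and -2.72. The monocarboxylate transporters, which pass lactate between cells, split into Slc16a1 at 1.84 ± 0.18 and Slc16a7 at -3.61 ± 0.72. Actl6a and Actl6b, exchanged in chromatin remodelling complexes when neurons leave the cell cycle, stood at 1.21 ± 0.21 and -5.45 ± 0.40. Creatine kinases, enolases, Hu proteins and the splicing regulators Ptbp1 and Ptbp2 completed much of this group, Ptbp2 with the smallest fall (-0.48 ± 0.15), which lost its call with quantile normalization and without any 1 library but neuron replicate 2, at -0.55 to -0.44 (adjusted p = 0.0552 to 0.106).

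Other families departed from that pattern. In 7 of them the neuronal form fell and the glial form was not called, as with Kif5c (-5.77 ± 0.25) and Kif5b (0.02 ± 0.15), motors that carry cargo along microtubules. In 5 both forms fell, among them Camk2a (-7.96 ± 0.23) with Camk2d (-0.85 ± 0.17) and Napb (-4.13 ± 0.33) with Napa (-0.83 ± 0.13), adaptors that recycle fusion complexes. The neuronal form was not called in 4 families, among them those of Aldoa, Cpt1c and Slc1a1, and it rose in 1, that of Ldhb described above. With quantile normalization the families with opposite calls numbered 17.

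**Figure D4:**
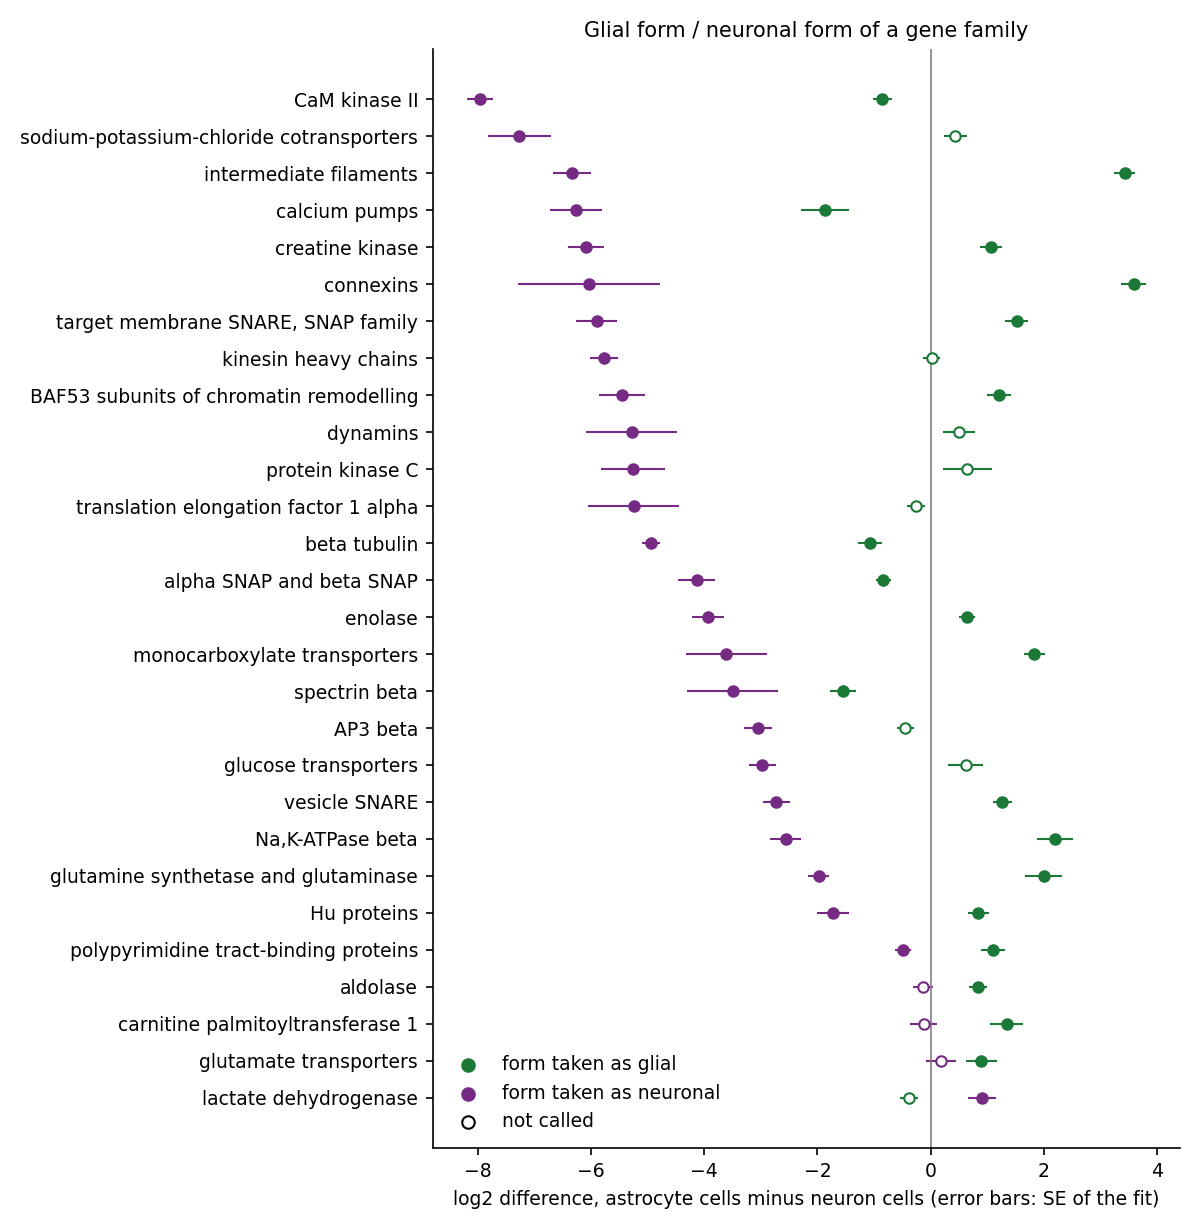
Log2 difference, astrocyte minus neuron cells, with the SE of the fit, for the glial form (green) and the neuronal form (purple) of 28 of the gene families, named by family; open points were not called. The neuronal form fell in 24 of the families shown and the glial form rose in 15, beside 26.3% lower and 12.2% higher over all tested genes. Lactate dehydrogenase runs against the labels.

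Counts for genes of general cell functions stand beside 12.2% higher and 26.3% lower over all tested genes. Those with quantile normalization stand beside 4076 higher and 3237 lower of all 17218 genes. Cell cycle genes were higher in 6 of 48 and lower in 7, against 24 lower without astrocyte replicate 3 and 2 or 3 without astrocyte replicate 1 or 2 or neuron replicate 1 or 3. Mki67, a protein of dividing cells, had 231, 68.9 and 661 in astrocytes against 2206, 438 and 1578 in neurons. Astrocyte replicate 3 was the highest of its group and lay within the neuron range, and Mki67 was not called (-2.39 ± 0.87, adjusted p = 0.0621). It was called without astrocyte replicate 3 (-3.18, adjusted p = 0.0186) or neuron replicate 2 (-3.08, adjusted p = 0.0466). Proteasome genes were higher in 3 and lower in 3 of 37, with 13 higher after quantile normalization. Ribosomal protein genes were lower in 19 of 80 and oxidative phosphorylation genes in 31 of 83 (37.3%), counts that became 8 and 23 with quantile normalization. Without astrocyte replicate 1 they were 9 and 18, and the ribosomal count was 11 or 12 without astrocyte replicate 3 or neuron replicate 2 or 3. The mitochondrially encoded messenger RNA of cytochrome b, mt-Cytb, stood at 888712 ± 299471 in astrocytes and 842990.0 ± 85672 in neurons and was not called. Immediate early genes split: Fos and Egr1, which respond to many stimuli, rose by 1.87 ± 0.22 and 1.70 ± 0.27, while Npas4, induced by neuronal activity, was listed at 0 in astrocytes and at 87.5, 422 and 128 in neurons.

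Long genes were lower in astrocytes more often than short ones. Annotated span, from the first to the last base of a gene in GENCODE vM21, was found for 99.8% of tested genes. Among 546 genes over 300 kb, 57.1% were called lower and 8.61% higher in astrocytes, against 24.0% and 9.61% of 5461 genes of up to 10 kb. Genes between these limits ran from 22.3% lower at 10 to 30 kb through 25.2% at 30 to 100 kb to 37.3% at 100 to 300 kb. With quantile normalization the shares lower were 48.5% over 300 kb and 16.0% up to 10 kb. The lists named above were part of both classes, since many adhesion and channel genes are long, and their part in this was not tested.

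**Figure D5:**
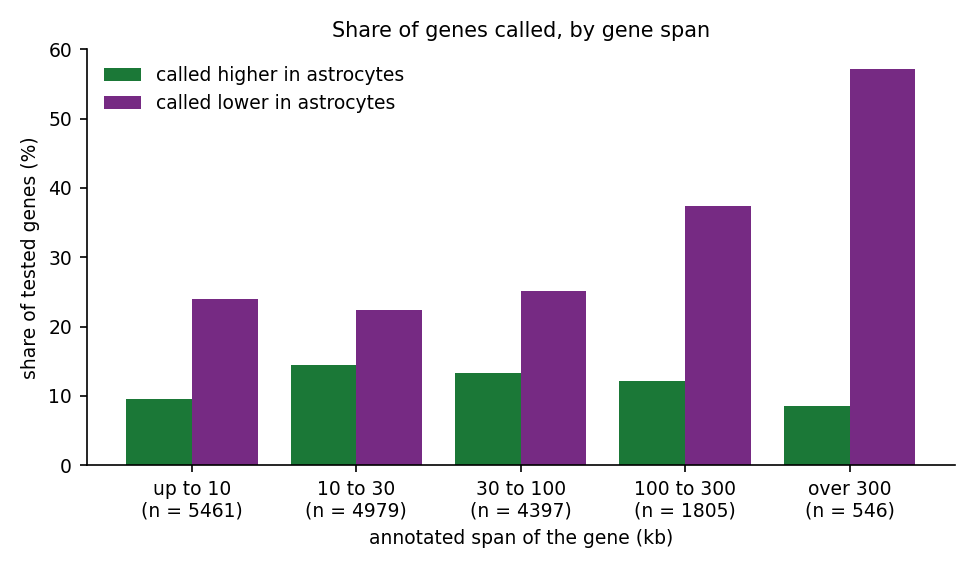
Share of tested genes called higher (green) or lower (purple) in astrocyte cells against neuron cells, by annotated gene span in kb, with the number of genes in each class. The share lower stands at 57.1% over 300 kb and at 22.3 to 25.2% in the 3 classes up to 100 kb.

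The sEV libraries, prepared from cultures whose cells were sequenced here, can be set beside these values. Of 356 called genes named by rule, 314 had the same sign in sEVs, 35 the opposite sign and 7 no difference. Over all 17218 tested genes the counts were 11643, 4691 and 884. That set includes 10593 genes not called in cells, so it is not a like comparison for the 356. By a limma interaction term, the difference was not the same in cells and in sEVs for 50 of the 356. That is 14%, beside 5.77% of all tested genes, and the 356 were named from cell values that also enter the interaction. All 20 genes named for the largest differences were among those with the same sign. Among genes at 0 in neuron cells, Tph1 and Tmem182 were listed at 0 in all astrocyte sEV libraries and above 0 in 1 neuron sEV library each, at 18.2 and 10.4, and Itih2 was listed at 0 in all 6 sEV libraries. Stmn2 averaged 192 ± 268 in astrocyte sEVs and 41074 ± 6318 in neuron sEVs, and Cntf 2806 ± 1406 in astrocyte sEVs and 132 ± 37.2 in neuron sEVs. Aqp4 averaged 7333 ± 2579.8 in astrocyte sEVs and 481 ± 133 in neuron sEVs. Microglia cells set some of these genes apart. Fcgrt stood at 8654 ± 1748 and Ttr at 6898 ± 4945 in microglia cells, while Aqp4 stood at 507 ± 594 and Cntf at 29.4 ± 17.2.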

How the data were processed

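The values are normalized counts as deposited by the authors, a signal per gene and library, made with Salmon 1.8.0 and DESeq2 on GRCm39, per the submitters' processing notes, which do not state their order. Values below 100 were mostly not whole multiples of 1 read (3.07 to 9.04% within 0.001), so no count test was run, and the depth is an estimate. The table held 0 columns of per-sample values outside the 18 libraries. Of its 54307 genes 32381 carry a symbol and 19634 were named through their Ensembl ID, with 2292 left unnamed.

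The 17218 genes that reached 10 in 3 or more of the 6 libraries were fitted with limma 3.58.1 (R 4.3.3) on log2(value + 1) with a mean-variance trend. Calls were made where the p-value, adjusted over these genes by Benjamini-Hochberg, was under 0.05. The fit was tested on simulated data. Alternatives were pseudocounts of 10 and 0.5, other filters, equal totals, quantile normalization, no trend, the spread of 9 cell libraries, a replicate block and leaving out each library. The comparison, the gene lists and the tests were chosen with earlier results of these data known. Named by rule were the 10 largest called differences in each direction with no overlap, no 0 and a mean of at least 500, the 5 highest genes at 0 in the other group, up to 6 members a list, the 32 families and the 10 highest genes. Other genes in the text were chosen after their values were seen. Promoters are RefSeq sequences on GRCm38.p6, matched to 12098 tested genes, and spans come from GENCODE vM21. The kit does not record strand. Some genes are not reported here. Where gene copies are alike, reads can be split between them.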

Additional observations from a re-analysis of the deposited data

Results flagged for a closer look

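For 17 of the 213 called genes described here, the difference between astrocytes and neurons was not the same in cells and in sEVs. This was 7.98% of them, by a limma interaction term adjusted over all tested genes, of which 5.77% passed. The 213 genes were called on their cell values, which also enter the interaction. Of the 20 genes named for the largest differences 2 passed, and the other genes were added after their values were seen. Rdh5, a retinol dehydrogenase, averaged 3355 ± 841 in astrocyte cells and 151 ± 74.0 in neuron cells, and 947 ± 475 in astrocyte sEVs and 279.9 ± 35.6 in neuron sEVs (SD, n = 3 each). The log2 difference was 2.96 larger in cells than in sEVs (limma adjusted p = 0.033), and in sEVs it was 1.59. Golga7b, a neuronal gene, averaged 27.1 ± 12.5 in astrocyte cells and 16114 ± 6684 in neuron cells, and 390.2 ± 193 in astrocyte sEVs and 22021 ± 9976 in neuron sEVs. Its log2 difference in cells minus that in sEVs was -3.35 (adjusted p = 0.0143), and in sEVs it was -5.83.

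Of the 17, 11 had the same sign in cells and in sEVs, 5 the opposite sign and 1 no difference in sEVs. Those with the opposite sign include Mfge8, an engulfment factor, at 1.68 in cells and -0.73 in sEVs, a gap of 2.41 (adjusted p = 0.0161). Got1, an aminotransferase, stood at -1.78 in cells and 0.20 in sEVs, a gap of -1.98 (adjusted p = 0.00504). Npc2, a lysosomal cholesterol carrier, stood at 1.09 in cells and -0.36 in sEVs, a gap of 1.46. Tph1 and Tmem182, at 0 in all neuron cell libraries, had gaps of 8.21 and 8.05 and were listed at 0 in all 3 astrocyte sEV libraries. Itih2, listed at 0 in all 6 sEV libraries, had a gap of 6.86, which is its difference in cells alone. Astrocyte sEV libraries held 12756 to 15750 genes above 0, against 18767 to 19210 in astrocyte cells. For Tph1, Tmem182 and Itih2, absence from sEVs and a level too low to be detected there cannot be told apart. The differences of Kif5c, Scn2a, Slc30a3 and Snrpn were lower in cells than in sEVs, with gaps of -2.14, -3.08, -5.83 and -1.13. Acaa2, Ntrk2 and Selenop rose more in cells than in sEVs, with gaps of 1.15, 1.39 and 1.71. Actl6b and Tuba1a were further below neurons in astrocyte sEVs than in astrocyte cells, with gaps of 5.16 and 1.12.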

How the results depend on the processing

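Of 480 genes named by the rule or in the text, 438 were called, and none changed direction in any alternative. With quantile normalization 4076 genes were called higher, against 2100. All genes called numbered 6953 and 6483 with pseudocounts of 10 and 0.5, 6295 with no filter and 6062 with a filter at 50, 6442 with equal totals, 5608 with no mean-variance trend and 5973 with the spread of 9 cell libraries, and 5190 to 6186 without 1 library. Deviations from the group means were nearly uncorrelated between libraries of the same replicate number (0.0103, -0.02 and -0.0123). That measure spans all tested genes and cannot show whether libraries are paired for some of them. The replicate block gave 6523 calls, 2049 higher and 4474 lower, and moved the cell cycle genes called lower from 7 to 18. The spread of 9 cell libraries ended the calls of Bdnf, Bmpr1b, C4b, Ddc, Fasn, Gldc, Gria2, Gria4, Hepacam, Itga7, Map2, Ndn, Nova1, Npas3, Ntrk2, Ntrk3, Pax6, Plxnb1, Ptbp2 and Slc1a2. Without the trend Ldhb, Ptbp2, Slc1a2 and Slc7a10 lost theirs, and with quantile normalization Fbll1, Ptbp2 and Slc7a10. Of 112 list counts, 54 moved by no more than 1.5 times in every alternative. The astrocyte minus neuron difference in the share of mitochondrially encoded genes was 0.258 percentage points and lay between -0.397 without astrocyte replicate 3 and 0.691 without astrocyte replicate 2, with -0.0454 without neuron replicate 2. The differences in detected genes and in the share of the 10 highest genes lay between -2075 and -1541 genes and between 2.73 and 4.02 percentage points without 1 library. Depth limits genes near a value of 10, and with 3 libraries a group the fit rests on few residual degrees of freedom.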

Other observations

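Secreted factors that astrocytes are known to use on synapses did not move one way. Of 40 tested, 11 were higher and 11 lower in astrocytes, beside 12.2% and 26.3% of all genes. Chrdl1, a secreted factor that matures AMPA receptor synapses, had 2108, 1884 and 6156 in astrocytes against 611, 451 and 236 in neurons (2.85 ± 0.51, limma adjusted p = 0.00318). Mfge8 and Megf10, which serve in the engulfment of debris and synapses, rose by 1.68 ± 0.22 and 1.83 ± 0.31. Thbs1, thrombospondin 1, was not called, at 2207 ± 1243 in astrocytes and 2439 ± 1446 in neurons. Gas6, a ligand of phagocytic receptors, fell (-1.24 ± 0.28), and neurotrophin 3, encoded by Ntf3, had 7.56, 0 and 0 in astrocytes against 1229, 598 and 1158 in neurons.

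Solute carriers were higher in 42 and lower in 95 of 286 tested, beside 12.2% and 26.3% of all genes. After quantile normalization 65 were higher and 82 lower, beside 4076 and 3237 of all 17218 genes. The urea transporter Slc14a1 had 3923, 5009 and 4124 in astrocytes against 241, 224 and 580.3 in neurons (3.77 ± 0.36, limma adjusted p = 0.00015). The zinc transporter Slc39a12 and the peptide transporter Slc15a2 rose by 2.26 ± 0.32 and 2.41 ± 0.34. Slc12a5, the chloride exporter KCC2 of mature neurons, had 16.1, 10.7 and 4.50 in astrocytes against 1943, 1099.6 and 1864 in neurons (-7.27 ± 0.55). Slc2a3, the neuronal glucose transporter GLUT3, fell (-2.97 ± 0.23), and Slc30a3, which loads zinc into synaptic vesicles, was listed at 0 in all 3 astrocyte libraries and at 1915, 2746 and 1831 in neurons. Rab GTPase genes were higher in 10 and lower in 16 of 55, with 16 higher and 12 lower after quantile normalization. Rab3a and Rab3c, which serve regulated secretion, fell (-3.21 ± 0.23 and -4.83 ± 0.26), while Rab7b rose by 4.25 ± 0.48 and Rab32, which serves lysosome-related organelles, by 2.98 ± 0.39.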
